A study of Mus musculus with 4 samples.

Results

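The S100 and cornified envelope genes were read in 4 mouse oral cancer cell lines, each measured with 1 RNA sequencing library. They were chosen by name: every gene whose symbol starts with S100a, Sprr or Lce, together with Ivl, Lor, Flg, Flg2, Hrnr, Rptn, Tchh, Tchhl1, Crnn, Tgm1, Tgm3, Evpl, Ppl, Cnfn, Sbsn and Krtdap. This gave 68 of the 34721 entries of the expression table, and the rule itself uses symbols alone. Mouse 3 gave AOC3 and AOC3-LN, and mouse 11 gave AOC11 and AOC11-LN. AOC3 and AOC11 are lines from the oral tumor, and AOC3-LN and AOC11-LN are lines from a lymph node metastasis of the same animal. The mice were C57BL/6 males with no engineered allele, taken into experiments young and older by many weeks of carcinogen when the tumor was taken. Their buccal mucosa was painted with the carcinogen DMBA (dimethylbenzanthracene) on a cotton swab until a tumor was visible. This period was longer in mouse 11 than in mouse 3. All 4 lines had been passed once under the skin of another C57BL/6 mouse, depleted of fibroblasts with a kit, and grown in DMEM/F12 medium with serum, and there was no line from normal mucosa to compare them with. Values are FPKM, the fragments of a gene scaled to transcript length and library size, so levels are per unit of length. Where 4 values stand together, mouse 3 comes before mouse 11 and, within a mouse, the primary line before the lymph node line. Differences are on the log2(FPKM + 1) scale after quantile normalization, which makes the value distribution of the 4 libraries identical, and on this scale the change of a low gene is understated.

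The cornified envelope is the protein shell that keratinocytes of stratified epithelia build under the plasma membrane as they mature. Envoplakin and periplakin lay down its base, involucrin and the small proline-rich (SPRR) proteins are joined to it by transglutaminases, and loricrin and the late cornified envelope (LCE) proteins fill it in last. Most of these genes lie together in the epidermal differentiation complex, which also holds the S100 genes, coding for small calcium-binding proteins that act inside cells and, for some members, as secreted alarm signals. In the oral mucosa, cheek and tongue cornify to different degrees, and SPRR genes are also known to be induced by stress and wounding. In mouse the complex is on chromosome 3, where 60 of the 68 genes lay between positions 90511034 and 93564643 (mm10), a stretch of 3.05 Mb with 35 other entries of the table. The others were Evpl on chromosome 11, Tgm1 on chromosome 14, Ppl on chromosome 16, Tgm3 on chromosome 2, Cnfn, Sbsn and Krtdap on chromosome 7, and the pseudogene S100a11-ps on chromosome 12.

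The libraries were of similar estimated depth, between 28300000 and 33900000 fragments, recovered from the spacing of low FPKM values. All 4 lines carried epithelial markers, with Krt8 between 815 and 1078 FPKM and Epcam between 416 and 518 FPKM. Basal keratinocyte markers were less alike. Of 6, 3 had a log2 difference past 1 in favor of the AOC3 lines, beside 5.1% of all genes. In favor of the AOC11 lines it was 0, beside 6%, and limma called 0. Krt5 was at 499, 275, 4.99 and 17.0 FPKM, whereas Krt14 and Itgb4 were higher in the AOC11 lines, short of that limit. Of 8 fibroblast markers none reached 1 FPKM in a line, and their summed level was 0.246 to 1.17 FPKM. Of 10 neutrophil markers 2 passed that limit (Ly6g and Ltf), with a summed level of 1.14 to 3.10 FPKM and Elane and Retnlg listed at 0 in every line. Of 7 macrophage markers 3 passed, with a summed level of 16.7 to 33.8 FPKM and Adgre1, C1qa and C1qb listed at 0 in every line.

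Most of the family was listed at 0 or close to it in these cells. Of the 68 genes, 28 were at or above 1 FPKM in 1 line or more, the limit set for comparisons, and 12 were listed at 0 in all 4 lines. The number at 1 FPKM or above was 21 and 20 in the lines of mouse 3 and 26 and 20 in those of mouse 11. Those that passed comprised 11 of 15 S100a genes, 7 of 16 SPRR genes, 3 of 21 LCE genes, 1 of 2 scaffold genes (Ivl), 1 of 7 genes of the S100-fused type (Tchh), 1 of 2 transglutaminases (Tgm1), both plakins, and Sbsn and Cnfn of 3 other cornified genes. Of the 28, 16 were at or above the limit in all lines and 5 (Cnfn, Lce1f, S100a8, Sprr2a3 and Sprr2h) in a single line. A gene that passed through 1 line alone had to differ between lines, so counts over the 28 describe them and do not speak for all 68.

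**Figure D1:**
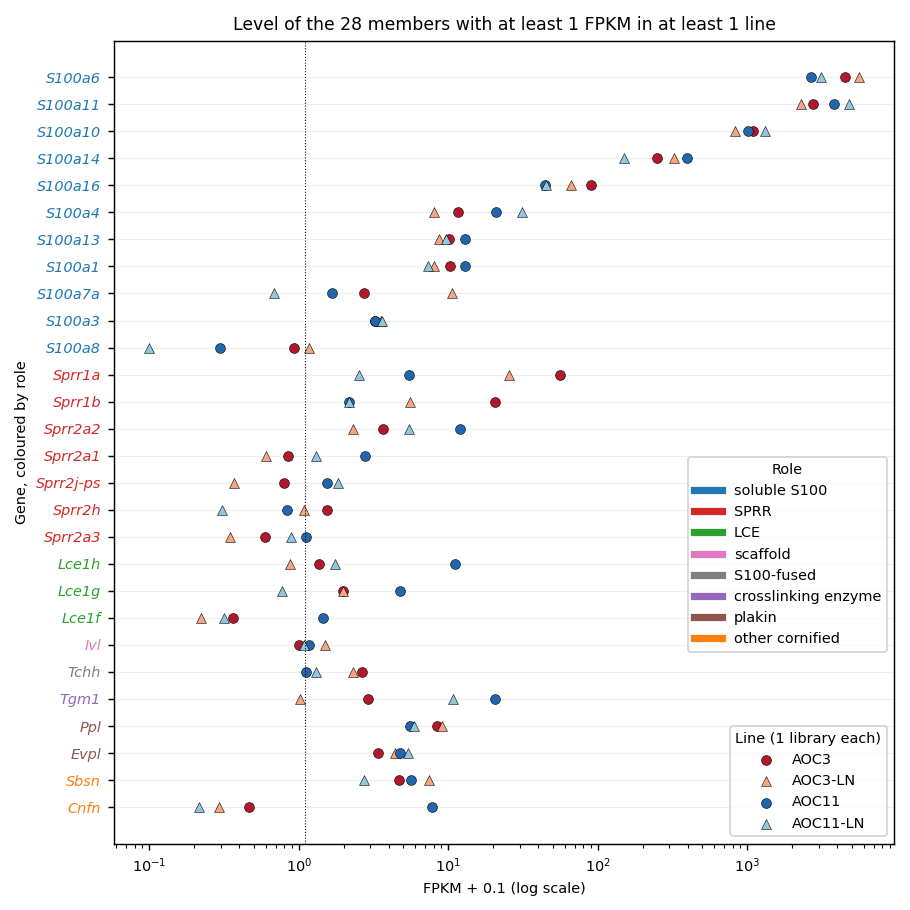
Level of the 28 S100 and cornified envelope genes at or above 1 FPKM in 1 line or more, as FPKM + 0.1 on a log axis, with 1 point per line (circles, primary tumor lines; triangles, lymph node lines; reds, mouse 3; blues, mouse 11) and gene names coloured by role; the dotted line marks 1 FPKM and S100a8 in AOC11-LN is listed at 0. S100a6, S100a11 and S100a10 lie far to the right of all others, and the points of Sprr1a, Sprr1b, Tgm1, Lce1h and Cnfn are among the most widely spread.

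The soluble S100 genes made up nearly all of the family's transcripts. Their summed level was 8733 and 9116 FPKM in mouse 3 and 7981 and 9452 FPKM in mouse 11, or 1.24%, 1.37%, 1.19% and 1.32% of the table's total. S100a6, S100a10 and S100a11 together held 94.5%, 94.6%, 92.8% and 96.9% of the summed FPKM of the 68 genes in the same order of lines. All the genes outside the S100a group summed to 111, 64.2, 90.7 and 45.9 FPKM, the higher value in each mouse being that of the primary line.

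S100a6, or calcyclin, a partner of annexins, was at 4529 and 5584 FPKM in mouse 3 and at 2653 and 3118 FPKM in mouse 11. Among the genes that passed the limit it ranked at position 13, 6, 17 and 19 from the top. S100a11, a further annexin partner that is also built into the cornified envelope, was at 2737, 2274, 3825 and 4766 FPKM and ranked at position 27, 24, 7 and 8. The pair changed places between the mice: in the AOC3 lines S100a6 was above S100a11, and in the AOC11 lines S100a11 was above S100a6. The log2 difference of the AOC3 lines from the AOC11 lines was 0.55 ± 0.28 (moderated SE by limma, 2 lines per mouse) for S100a6. For S100a11 it was -0.94 ± 0.19. Both were short of the 2-fold limit, and values of the mice did not overlap for either gene. Some of the transcript of S100a11 cannot be placed with certainty, since 34.0% of its 100-base words also occur in the pseudogenes Gm12854 and Gm7665.

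S100a10, the subunit that joins annexin A2 into a tetramer and does not itself bind calcium, was at 1089 and 826 FPKM in mouse 3 and at 1015 and 1320 FPKM in mouse 11. Its mice overlapped, with a log2 difference of -0.09 ± 0.22. S100a14, an S100 protein of epithelia, was at 249, 326, 393 and 150 FPKM, so that the highest and the lowest level both belonged to mouse 11. S100a16 was at 89.9 and 66.5 FPKM in mouse 3 and at 44.6 and 45.2 FPKM in mouse 11, without overlap between the mice and with a log2 difference of 0.82 ± 0.21. The mice overlapped for S100a1, S100a13 and S100a3, which were between 7.21 and 12.9 FPKM, between 8.58 and 12.8 FPKM and between 3.11 and 3.53 FPKM across lines.

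S100a4, known as metastasin and widely used as a marker of mesenchymal cells and macrophages, was at 11.5 and 7.95 FPKM in mouse 3 and at 20.9 and 30.8 FPKM in mouse 11. Both AOC11 lines were above both AOC3 lines, and the log2 difference was -1.26 ± 0.28. The lymph node line was lower than its primary line in mouse 3 and higher in mouse 11, and without AOC11-LN the difference between the mice was -0.98. Of its 100-base words 50.9% occur in the overlapping entry Gm42674, which was listed at no more than 0.306 FPKM in any line. How shared fragments were split between these entries is uncertain. The summed fibroblast markers, all under 1 FPKM, were higher in the AOC11 lines, at 0.246, 0.323, 0.511 and 1.17 FPKM in the order above. Not every marker shared this: Col1a2 was highest in AOC3, and Pdgfra overlapped between the mice. Of the 3 macrophage markers that passed, Csf1r was higher in the AOC11 lines, at 0.995, 0.435, 20.8 and 6.01 FPKM. Cd68, at 13, 8.79, 6.15 and 4.45 FPKM, was higher in the AOC3 lines. Cd14 was at 7.31, 8.55, 6.83 and 6.27 FPKM, and the summed macrophage markers, at 21.3, 17.8, 33.8 and 16.7 FPKM, overlapped between the mice. The part of such cells in the S100a4 difference was not tested, and in bulk RNA more cells of a type and more RNA per cell cannot be told apart.

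The inducible S100 genes, which are known from inflamed and wounded skin, were low. S100a7a, of the psoriasin type, was at 2.61 and 10.4 FPKM in mouse 3 and at 1.57 and 0.582 FPKM in mouse 11. The AOC3 lines were higher by 1.71 ± 0.68 on the log2 scale, a value that was 0.83 without AOC3-LN and 2.61 without AOC3. S100a8, which with S100a9 forms calprotectin, was at 0.827, 1.07, 0.197 and 0 FPKM, or at most 14, 15, 3 and 0 fragments by the depth estimate. S100a9 did not exceed 0.198 FPKM. Neutrophils carry large amounts of both, and the summed neutrophil markers, most of it Ly6g and Ltf, were 2.48, 1.14, 3.10 and 1.73 FPKM; their part in the S100a8 values was not tested. S100a2 and S100a5 did not exceed 0.453 FPKM, and S100z, an S100 gene outside the S100a group, was at 2.26, 4.78, 0 and 0.517 FPKM.

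Between the mice, the question was which of the genes keep a level of their own in both lines of an animal. Of the 28 genes, 8 (28.6%) had a log2 difference past 1 between the means of the AOC3 and AOC11 lines, beside 11.1% of all 14165 genes that passed the limit. S100a7a, Sprr1a and Sprr1b were higher in the AOC3 lines, 3 genes beside a background of 5.1%. Tgm1, S100a4, Sprr2a2, Lce1h and Cnfn had the higher mean in the AOC11 lines, 5 genes beside a background of 6%. Cnfn passed the limit through AOC11 alone and had its lowest level in AOC11-LN, so its place in this count rests on AOC11. The median of the 28 differences was -0.01, and that of all genes was 0.01. Non-overlap of the lines was common in the table, at 53.1% of all genes and 17 (60.7%) of the 28. Among the 17, S100a8, Sprr2a3 and Sprr2h reached the limit in a single line, so that some difference between lines was set by the limit. limma, treating both lines of an animal as replicates, called 0 of the 28 at an adjusted p under 0.05, beside 0.205% of all genes, and 11 (39.3%) at an unadjusted p under 0.05, beside 18.7%. With each group being a single mouse the fit describes these lines, and an exact permutation test of 2 lines against 2 cannot give a p below 0.333.

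A difference past 1 at both sites, between the primary lines and again between the lymph node lines, was seen for Sprr1a, Sprr1b and Tgm1, 3 of the 28 beside 4.81% of all genes. These comparisons share no library. Between primary lines alone 11 of the 28 genes were past 1, beside 11.9%, and between lymph node lines 9, beside 16.3%. Lce1g was past 1 in opposite directions, at -1.02 between primary lines and 1.02 between lymph node lines.

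**Figure D2:**
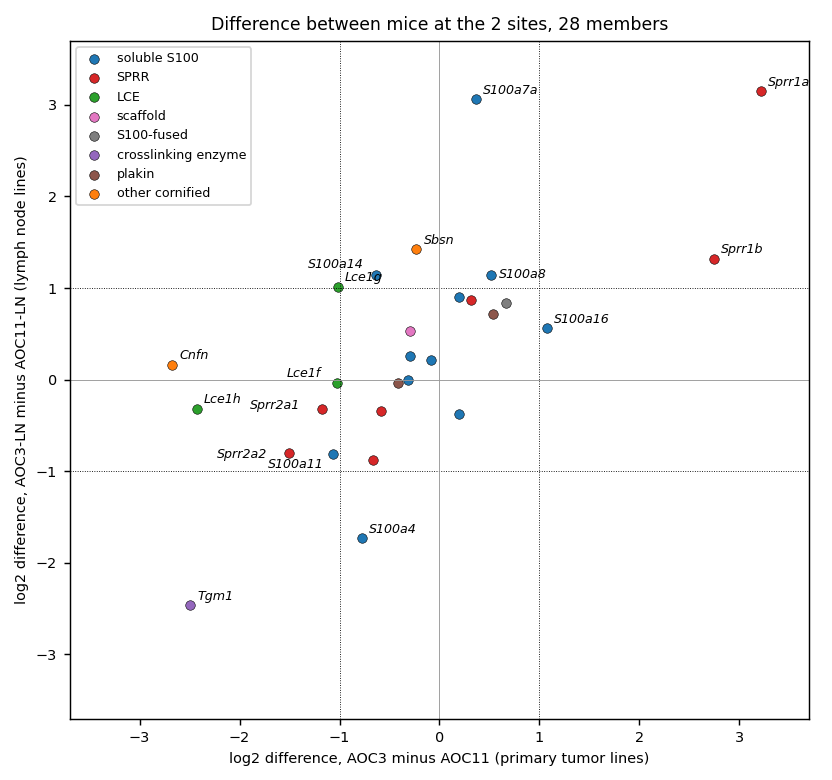
Log2 difference of AOC3 from AOC11 (x axis, primary tumor lines) against that of AOC3-LN from AOC11-LN (y axis, lymph node lines) for the 28 genes, 1 point per gene coloured by role, with dotted lines at 1 and -1. Sprr1a and Sprr1b stand at the upper right and Tgm1 at the lower left, past 1 at both sites, whereas Cnfn and Lce1h differ between the primary lines and S100a7a between the lymph node lines.

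Sprr1a and Sprr1b encode small proline-rich proteins that serve as cross-bridges of the envelope and that appear early in squamous differentiation and after stress. Sprr1a was at 55.6 and 25.4 FPKM in mouse 3 and at 5.33 and 2.43 FPKM in mouse 11. Every AOC3 value was above every AOC11 value, and within each mouse the primary line was above the lymph node line. The log2 difference between the mice was 3.18 ± 0.51 (moderated SE), with 3.22 at the primary site and 3.15 at the lymph node. This was about 3 times the distance between the lines of a mouse. By limma its p was 0.00151, with an adjusted p of 0.0965 over all genes. Sprr1b, close to it in the complex, was at 20.5, 5.44, 2.06 and 2.07 FPKM, with a log2 difference of 2.03 ± 0.57 and an adjusted p of 0.185 by limma. Its level in the AOC11 lines was the same at both sites, whereas in mouse 3 the primary line stood well above the lymph node line. Neither transcript shares a 100-base word with another gene. Leaving out any 1 line gave a difference between 2.65 and 3.70 for Sprr1a and between 1.21 (without AOC3) and 2.85 (without AOC3-LN) for Sprr1b.

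Of the 5 SPRR2 genes that passed, Sprr2a2 alone was past 1, in favor of the AOC11 lines. It was at 3.59 and 2.20 FPKM in mouse 3 and at 11.9 and 5.39 FPKM in mouse 11, with a log2 difference of -1.15 ± 0.42. Sprr2a1 was at 0.747, 0.50, 2.69 and 1.21 FPKM. These annotated genes overlap and are near copies, with 92.8% of the 100-base words of Sprr2a2 and 92.5% of those of Sprr2a1 found in other genes of the group, so that the split between them is uncertain and only their shared direction can be read. Sprr2a3, with 36.2% of its 100-base words also in Sprr2a1 and Sprr2a2, was between 0.244 and 1.03 FPKM and passed through AOC11 alone. Sprr2j-ps, listed as protein-coding despite its symbol, was between 0.270 and 1.72 FPKM. Both were higher in both AOC11 lines, and for Sprr2a3 the split from its near copies is uncertain too. Sprr2h was at 1.44, 0.986, 0.730 and 0.208 FPKM, higher in the AOC3 lines. The Sprr2a2 difference fell short of 1 without the AOC11 line, at -0.60, and without AOC3-LN, at -0.96. Sprr3, a gene of the suprabasal cells of oral and esophageal epithelium, did not exceed 0.0580 FPKM, and Sprr4 was listed at 0 in all lines.

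Promoter sequences were looked up to show how unlike the starts of these genes are. RefSeq (GRCm38.p6) promoters of 300 bases, from 250 before to 50 after the start, were found for 59 of the 68 genes. The AP-1 letters TGANTCA, bound by Fos and Jun proteins, were searched on both strands, with TATAAA for the TATA box, and a match is a description of letters and not a binding site. AP-1 letters occurred in 9 of 14 SPRR promoters, in 0 of 20 LCE promoters and in 2 of 11 S100a promoters, beside 8.97% of 27025 genes. TATAAA occurred in 10 of 14, 4 of 20 and 4 of 11, beside 15.7% of genes. The LCE matches differ in place. In Lce1d and Lce1m they begin 30 and 29 bases before the start. In Lce6a and Lce3e they are on the opposite strand, 218 and 243 bases before it. Sprr2b, Sprr2d, Sprr2e, Sprr2f, Sprr2h, Sprr2i and Sprr2k hold the same AP-1 letters, TGAGTCA, between 198 and 193 bases before the start. Their matches are therefore not independent of each other. Of the SPRR genes with AP-1 letters, only Sprr1a, Sprr1b and Sprr2h passed 1 FPKM. The letters AACNNGTT, of the Grainyhead-like type, occurred in 3 of the 59 promoters, beside 4.77% of genes, and TTGCNNAA, of the C/EBP type, in 9 of 59, beside 12.2%. Sprr1a and Sprr1b are shown as the genes higher in mouse 3, and Lce1g and Lce1h as those with large differences inside mouse 11; capitals mark AP-1 and TATAAA matches. All 4 lie on the minus strand of chromosome 3 and are written 5′ to 3′, Sprr1a from chr3:92485832-92486131, Sprr1b from chr3:92438730-92439029, Lce1g from chr3:92752289-92752588 and Lce1h from chr3:92765016-92765315.
Sprr1a: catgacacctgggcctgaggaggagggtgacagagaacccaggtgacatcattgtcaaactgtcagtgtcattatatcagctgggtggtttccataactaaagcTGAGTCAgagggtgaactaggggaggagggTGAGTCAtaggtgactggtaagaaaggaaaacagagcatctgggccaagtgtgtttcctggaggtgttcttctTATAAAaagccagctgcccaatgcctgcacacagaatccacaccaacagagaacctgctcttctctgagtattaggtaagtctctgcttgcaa
Sprr1b: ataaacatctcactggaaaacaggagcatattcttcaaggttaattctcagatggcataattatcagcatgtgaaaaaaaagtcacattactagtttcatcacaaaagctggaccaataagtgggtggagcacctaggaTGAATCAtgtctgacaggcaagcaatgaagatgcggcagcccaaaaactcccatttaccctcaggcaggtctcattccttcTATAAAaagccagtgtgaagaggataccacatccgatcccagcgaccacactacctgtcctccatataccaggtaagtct
Lce1g: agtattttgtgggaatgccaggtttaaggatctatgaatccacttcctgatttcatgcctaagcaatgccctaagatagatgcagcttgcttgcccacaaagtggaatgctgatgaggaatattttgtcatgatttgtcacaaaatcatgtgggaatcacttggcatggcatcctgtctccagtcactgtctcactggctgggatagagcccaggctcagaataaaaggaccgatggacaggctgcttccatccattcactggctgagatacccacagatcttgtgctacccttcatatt
Lce1h: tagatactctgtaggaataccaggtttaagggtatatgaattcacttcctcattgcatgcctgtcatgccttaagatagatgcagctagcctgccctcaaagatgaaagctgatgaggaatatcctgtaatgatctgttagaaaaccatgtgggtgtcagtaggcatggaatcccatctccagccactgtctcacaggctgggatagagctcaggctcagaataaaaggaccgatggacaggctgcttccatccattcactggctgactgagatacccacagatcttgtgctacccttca

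In Sprr1a the AP-1 matches begin 146 and 116 bases before the start and TATAAA 43 bases before it, and in Sprr1b they begin at 111 and 30 bases before it. Neither Lce1 promoter holds a match to any of the 4 motifs. Matches were present in genes of very different level. Ivl has an AP-1 match 116 bases before its start and was near 1 FPKM. S100a11, one of the highest genes of the table, has AP-1 matches at 136 and 38 bases before its start and no TATAAA. A link between these matches and expression was not tested.

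Tgm1, the membrane-anchored transglutaminase that cross-links the envelope of stratified epithelia, had the largest difference in favor of the AOC11 lines. It was at 2.79 and 0.918 FPKM in mouse 3 and at 20.5 and 10.6 FPKM in mouse 11. The lower AOC11 line was still well above the higher AOC3 line, and the lymph node line was the lower one in each mouse. The log2 difference was -2.48 ± 0.45, with -2.49 at the primary site and -2.46 at the lymph node, and by limma its p was 0.00259 and its adjusted p 0.110. It lay between -2.97 and -1.99 when any 1 line was left out. Tgm3, the transglutaminase of hair and later stages of the envelope, did not exceed 0.0232 FPKM. Genes for envelope proteins past 1 between the mice went both ways. Sprr1a and Sprr1b were higher in the AOC3 lines, unlike Tgm1. Sprr2a2, at -1.15, and Lce1h, at -1.37, had the higher mean in the AOC11 lines, like Tgm1.

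The plakins, which start the envelope and tie it to keratin filaments and desmosomes, varied little. Evpl was at 3.31 and 4.27 FPKM in mouse 3 and at 4.64 and 5.25 FPKM in mouse 11, with a log2 difference of -0.23 ± 0.26. Ppl was at 8.35, 9.02, 5.43 and 5.79 FPKM, without overlap between the mice and with a difference of 0.63 ± 0.22. The scaffold gene Ivl, for involucrin, was at 0.911, 1.40, 1.07 and 0.978 FPKM, and Lor, for loricrin, did not exceed 0.844 FPKM. Of the genes of the S100-fused type, which code for the large proteins of keratohyalin granules, Tchh (trichohyalin) was at 2.57, 2.21, 1.02 and 1.21 FPKM. The other 6 genes of the type, among them Flg for filaggrin and Hrnr for hornerin, did not exceed 0.0312 FPKM.

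The LCE genes, which code for small cysteine-rich and glycine-rich proteins added to the envelope last, passed the limit in a single stretch of the complex. Of the 21 genes only the neighboring Lce1f, Lce1g and Lce1h passed 1 FPKM, and no other exceeded 0.704 FPKM in any line. Lce1h was at 1.26 and 0.769 FPKM in mouse 3 and at 11.1 and 1.64 FPKM in mouse 11. Lce1g was at 1.87, 1.88, 4.63 and 0.671 FPKM, and Lce1f at 0.263, 0.123, 1.36 and 0.217 FPKM. For each of the 3 genes AOC11 had the highest level of the 4 lines. The summed level of the 21 genes was 3.55, 3.26, 18.1 and 3.29 FPKM. Under 2% of the 100-base words of each of the 3 occur in other LCE genes, at 0.795%, 1.69% and 1.32% for Lce1f, Lce1g and Lce1h.

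Cnfn, for cornifelin, a small component of the envelope, had the same shape. It was at 0.361 and 0.191 FPKM in mouse 3 and at 7.69 and 0.115 FPKM in mouse 11, or at most 8, 4, 182 and 3 fragments by the depth estimate. AOC11 was the only line above 1 FPKM, and the difference between the mice for Cnfn rested on that line: without it the gene was under the limit and had no value, and without AOC11-LN its difference moved from -1.26 to -2.76. The Lce1h difference of -1.37 was -0.20 without AOC11 and -2.59 without AOC11-LN. Sbsn, for suprabasin, a secreted protein of the upper epidermal layers, was at 4.58, 7.36, 5.55 and 2.64 FPKM, its extremes being the lymph node lines. Of its 100-base words 7.67% occur in the overlapping Tmem147os.

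The lymph node line was set against the primary line of the same mouse to ask which genes differ between the sites. Within a mouse each such difference compares single libraries, has no replicate check and was not tested. Over both mice, limma with the mouse as a block called 0 of the 28 genes for the site, beside 0.0141% of all genes, and 2 at an unadjusted p under 0.05, beside 2.86%, and without the block it called 0, beside 0.0141%, and 0 at an unadjusted p under 0.05, beside 1.05%. In mouse 3, 3 of the 28 genes (10.7%) were past 1, beside 5.53% of all genes. S100a7a was higher in AOC3-LN by 1.78, 1 gene beside a background of 2.11%, and Sprr1b and Sprr1a were lower, at -1.66 and -1.09, 2 genes beside 3.42%. The median of the 28 was -0.13 and that of all genes 0.02.

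In mouse 11, 7 of the 28 genes (25%) were past 1 and all 7 were lower in AOC11-LN, beside 8.11% of all genes past 1 in either direction and 3.14% in that direction. None was higher, where the background was 4.97%. The log2 difference was -2.97 for Cnfn, -2.34 for Lce1h, -1.88 for Lce1g, -1.36 for S100a14, -1.12 for Lce1f, -1.08 for Sprr2a2 and -1.02 for Sprr1a. Cnfn and Lce1f passed through AOC11 alone, so for them a lower value in AOC11-LN was fixed by the limit. The median of the 28 differences was -0.42, beside -0.02 for all genes. Of all genes past 1, 61.3% were higher in AOC11-LN, and 71.2% without the quantile step, where 5 of the 28 were lower and 0 higher. Without that step Lce1f and Sprr1a were short of the limit. Of the macrophage markers, Csf1r was lower in AOC11-LN than in AOC11 too, with 6.01 against 20.8 FPKM. Cd68 was at 4.45 against 6.15 FPKM and Cd14 at 6.27 against 6.83 FPKM, and the rest of the list did not exceed 0.0266 FPKM. The summed macrophage markers were 16.7 against 33.8 FPKM, with most of the fall from Csf1r. The part of such cells in these differences was not tested.

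**Figure D3:**
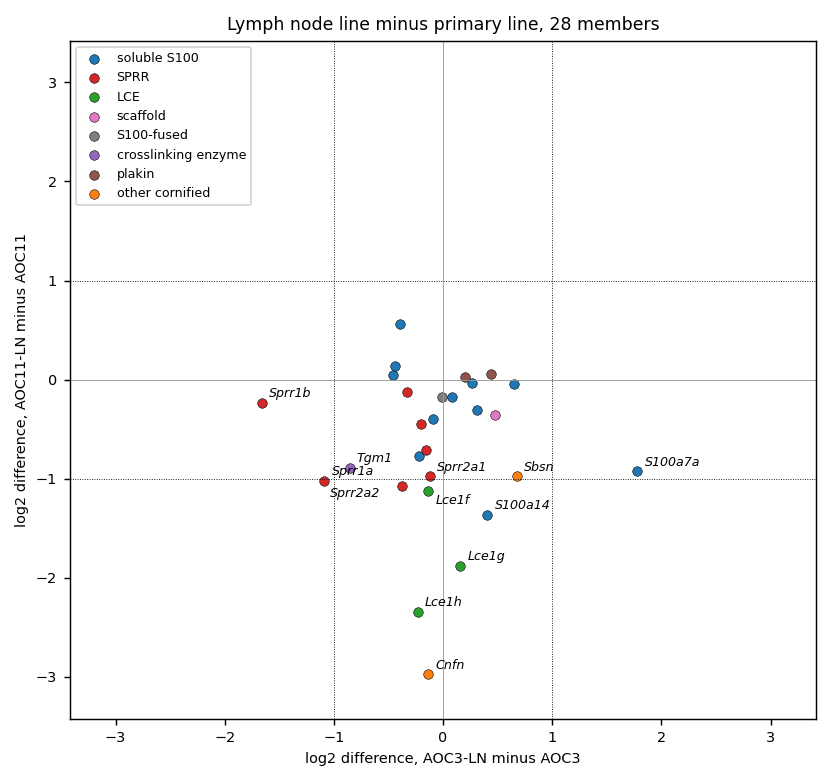
Log2 difference of the lymph node line from the primary line in mouse 3 (x axis) against that in mouse 11 (y axis) for the 28 genes, 1 point per gene coloured by role, single libraries with no error, with dotted lines at 1 and -1. Cnfn, Lce1h, Lce1g and S100a14 lie low on the y axis and near 0 on the x axis, S100a7a lies far right, and Sprr1a is the gene past -1 on both.

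Sprr1a alone was past 1 in the same direction in both mice, 1 of the 28 beside 0.642% of all genes, at values close to the limit. None was past 1 in opposite directions, beside 0.981% of all genes; S100a7a came nearest, at 1.78 in mouse 3 and -0.92 in mouse 11. Tgm1 was lower in both lymph node lines, at -0.86 in mouse 3 and -0.89 in mouse 11. S100a14 was at 0.40 in mouse 3 and -1.36 in mouse 11, and Sbsn at 0.68 and -0.98. S100a6 was at 0.65 and -0.05, S100a11 at 0.08 and -0.18, and S100a10 at -0.44 and 0.13. For these very high genes the quantile step set some directions: without it S100a11 was at -0.27 and 0.32, S100a6 at 0.30 and 0.23, and S100a10 at -0.40 and 0.38. The 3 genes were short of the limit in both mice in all processing settings. Whether the shifts differ between the mice could not be tested with 1 library per line.

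Along the complex, the genes lower in AOC11-LN lay in more than 1 place. S100a14 is in the S100 cluster at one end, Sprr2a2 and Sprr1a are in the SPRR cluster, and Lce1f to Lce1h are next to it. Of the 35 other entries in the same stretch 7 passed 1 FPKM, and 3 of these were also lower by more than 1, beside 3.14% of all genes. Pglyrp3 (peptidoglycan recognition protein) was at 2.82 FPKM in AOC11 and 1.11 in AOC11-LN, Crct1 (cysteine-rich C-terminal protein) at 1.29 and 0.0552, and Gm37361 at 2.05 and 0. Crct1 and Gm37361 passed through AOC11 alone, so that a lower value in AOC11-LN was fixed by the limit. S100a6, S100a10, S100a11 and Tchh, in the same stretch, were short of the limit in all settings, with values between -0.18 and 0.13 here and up to 0.52, for S100a11, in other settings.

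**Figure D4:**
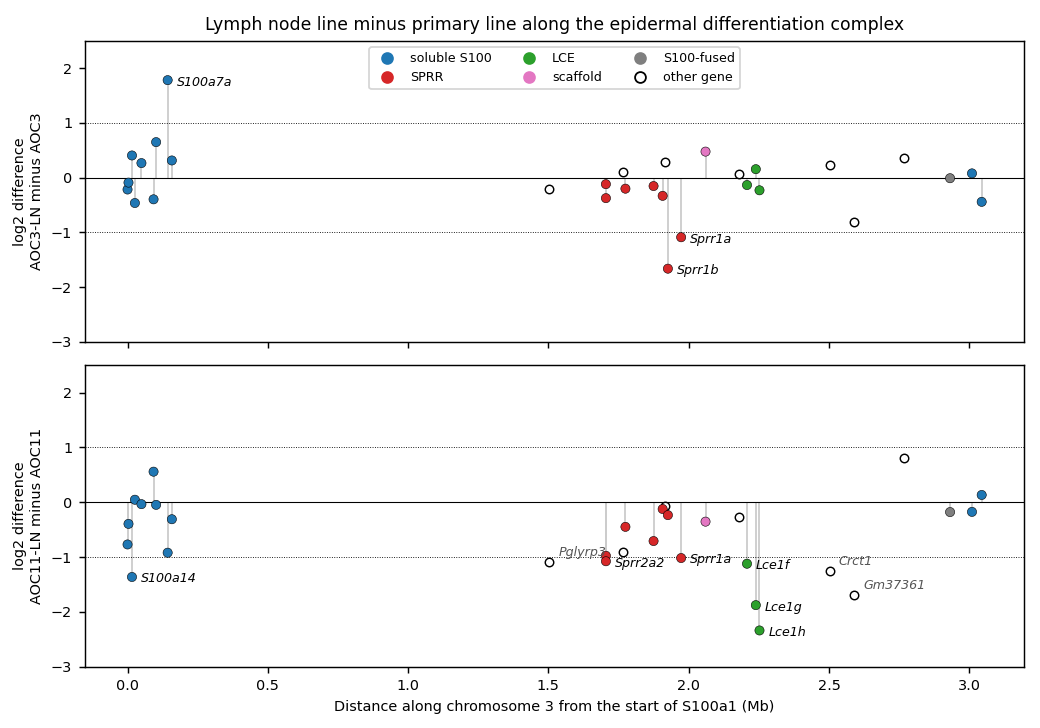
Log2 difference of the lymph node line from the primary line (y axes; upper, mouse 3; lower, mouse 11) by distance along chromosome 3 from the start of S100a1 in Mb (x axis), with filled points for the S100, SPRR, LCE, scaffold and S100-fused genes, open points for other genes of the stretch, and dotted lines at 1 and -1; single libraries with no error. In mouse 11 the labelled genes below -1 are spread over S100, SPRR and LCE clusters, and in mouse 3 Sprr1a and Sprr1b are the only ones below -1.

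The genes around the envelope were read from lists of other keratinocyte genes. Of 39 other genes of keratinocyte differentiation 18 passed 1 FPKM; 3 were past 1 in favor of the AOC3 lines, beside 5.1% of all genes, 2 in favor of the AOC11 lines, beside 6%, and limma called 0. Krt6a, a keratin of activated keratinocytes, was at 22.9 and 81.1 FPKM in mouse 3 and at 1.16 and 1.40 FPKM in mouse 11, a difference of 4.32. Serpinb2, a further gene of differentiating and stressed keratinocytes, was at 19.7, 162, 8.47 and 4.65 FPKM. Unlike Sprr1a, both were higher in AOC3-LN than in AOC3. Sult2b1, the cholesterol sulfotransferase of the upper epidermis, was at 11.9, 15.7, 66.9 and 57.0 FPKM, on the side of Tgm1, and Tgm2 at 13, 2.80, 16.8 and 20.1 FPKM. The list had a median difference of 0.00. In AOC3-LN 3 of its genes were higher and 1 lower than in AOC3, beside 2.11% and 3.42% of all genes, and in AOC11-LN 1 was higher and 0 lower than in AOC11, beside 4.97% and 3.14%. Of 15 genes for the lipids of the envelope 8 passed, and 1 was past 1 between the mice, beside 11.1% of all genes (Smpd1, for acid sphingomyelinase, higher in the AOC11 lines). In AOC3-LN 2 were higher and 0 lower than in AOC3, beside 2.11% and 3.42%. These were Elovl4, by 1.20, and Aloxe3, by 1.03. Aloxe3 passed through AOC3-LN alone, so its direction was fixed by the limit. In AOC11-LN 0 were higher and 0 lower than in AOC11, beside 4.97% and 3.14%.

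Of 32 genes for regulators of the complex, 26 entries passed 1 FPKM, with 2 entries for Junb. Of these, 5 were past 1 in favor of the AOC3 lines, beside 5.1% of all genes, and 5 in favor of the AOC11 lines, beside 6%, and limma called 0. Fosl1, an AP-1 subunit, was at 39.0 and 84.1 FPKM in mouse 3 and at 16 and 19.3 FPKM in mouse 11, a difference of 1.70. Klf4, a factor of barrier formation, was at 8.09, 17.7, 5.17 and 5.39 FPKM. Both had their highest level in AOC3-LN, where Sprr1a and Sprr1b were below their AOC3 level, in single libraries. A link between these regulators and the Sprr1 genes was not tested. Notch1, a receptor that drives differentiation in epidermis, was at 2.66, 0.777, 13 and 12.7 FPKM, a difference of -2.37, and Casz1 at 0.105, 0.200, 1.93 and 1.47 FPKM.

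Of 13 genes for S100 partners and receptors 9 passed; 0 were past 1 in favor of the AOC3 lines, beside 5.1% of all genes, and 2 in favor of the AOC11 lines, beside 6%, and limma called 0. Anxa2, the partner of S100a10, was at 1809 and 1543 FPKM in mouse 3 and at 1134 and 1386 FPKM in mouse 11. Anxa1, the partner of S100a11, was at 1079, 1473, 1665 and 1547 FPKM. Anxa6 was at 14.1, 3.97, 49.8 and 75.7 FPKM, a log2 difference of -2.76, and Alcam at 1.14, 1.94, 5.09 and 8.91 FPKM.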

How the data were processed

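RNA of 4 cell lines, 1 library each, was sequenced as stranded paired-end mRNA libraries. Per the submitters' processing notes and the methods, the authors trimmed reads with Trim Galore, mapped them to mm10 with TopHat2 and estimated abundance with Cufflinks on GENCODE M21. The deposited values are FPKM; read counts were not used here, and an exact 0 can be a failed estimate. Genes of the rule with no entry in the table (Sprr2c-ps) were not analysed here.

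After adding a pseudocount of 1, FPKM values were put on the log2 scale, the 4 libraries were quantile-normalized on all 34721 entries, and the 14165 that were at or above 1 FPKM somewhere entered the comparisons. A log2 difference past 1 (2-fold) was counted. limma 3.58.1 in R 4.3.3 (lmFit, eBayes with trend, Benjamini-Hochberg over all 14165) compared the lines of mouse 3 with those of mouse 11. It treated both lines of an animal as replicates. Each value after ± is its moderated SE: the spread between the lines of a gene, drawn toward the trend over all genes. For a single gene it can be smaller or larger than the spread of its own lines, and it holds no spread between mice. Scripts were tested on simulated data. Fragment numbers were estimated from the spacing of low FPKM values: between 64.9% and 68.2% of low values of 9528 single-transcript genes lay within 0.1 of a whole multiple, against 20% by chance. They are upper estimates for a gene, taken with its longest transcript, and the precision of genes near 1 FPKM is low. Sequence sharing was counted as 100-base words over GENCODE M21 transcripts. Any of the genes that passed may be named; of a list of other genes, up to 4 with the largest difference and the 2 with the highest level are named, besides cell type markers. The genes and lists were chosen with earlier results of these data known. Alternatives were another pseudocount, scaling, filter, threshold or gene type, a site term, a fit for the site with the mouse as a block, limma without trend, and leaving out each line.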

Additional observations from a re-analysis of the deposited data

How the results depend on the processing

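With a pseudocount of 0.1 FPKM, 15 genes instead of 8 were past 1 between the mice, 12 instead of 7 in AOC11-LN against AOC11, and 1 instead of 0 (S100a7a) in opposite directions in the 2 mice. With a 1.5-fold limit these counts were 17, 13 and 2, and 6 instead of 3 genes were past it in AOC3-LN against AOC3. limma, which called 0 genes, called 2 (Sprr1a and Tgm1, with adjusted p of 0.0353 and 0.0444) when fitted to protein-coding genes only, where 259 genes in all were called instead of 29, and 1 (Sprr1a, adjusted p of 0.036) with the site as a block; with other alternatives it called 0. The fit to protein-coding genes also redid the normalization on them. With the normalization of all entries kept, an alternative chosen after seeing the data, it called 2 genes and 256 in all. Leaving out each line in turn gave between 7 and 9 genes past 1 between the mice and 0 calls by limma; these limma fits have 1 residual degree of freedom and made between 0 and 4 calls among all genes, so they say nothing of stability. Without AOC11-LN the S100a4 difference was -0.98, and without AOC3-LN that of S100a7a was 0.83. Scaling by the median left 2 genes past 1 in AOC3-LN, with Sprr1a just short of the limit, and 5 in AOC11-LN. No difference past 1 changed its sign in any alternative. Sprr1a, Sprr1b and Tgm1 stayed past 1 between the mice in each of the 6 processing settings and 4 left-out lines. With the mouse as a block, a pairing from the labels chosen as a fit after seeing the data, limma called 0 genes for the site, as it did without the block. Depth limits what can be said of genes under 1 FPKM, which rest on few fragments.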
